A study of Mus musculus with 10 samples.

Results

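The genes described here encode proteins of thymocytes and T cells: the recombination machinery of immature thymocytes, the transcription factors of the T lineage, the T cell receptor complex and its nearest signalling proteins, the coreceptors CD4 and CD8, and other surface receptors of T cells. A list of 33 such genes was matched to an array study of the mouse heart. A gene counted as measured where a probe set carried its symbol and no other, and of several such probe sets the brightest on average was taken. In this way 31 of the 33 were measured, of 19938 genes in all, each by 1 probe set. Tcf7 and Lck had no probe set of their own and were not analysed here. The list was drawn up because these genes were high in the array of KD heart replicate 1, so their height in that array is given as a description with no test.

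The study compared wild-type (WT) mice with VAChT KD mice, whose vesicular acetylcholine transporter is knocked down (KDHOM in the series title). The transporter, encoded by Slc18a3, loads acetylcholine into the vesicles of nerve endings and other cells that release it. All mice were untreated C57BL/6 males of 3 months, and each array carried RNA pooled from 2 samples. The 10 arrays fall into 3 of WT and 3 of KD ventricular cardiomyocytes, the isolated muscle cells of the heart chambers, and 2 of WT and 2 of KD whole hearts. How the allele lowers the transporter, and whether organs beside the heart were trimmed away before extraction, is not given in the sources used here. The labels number the arrays but do not tie them to animals, so p-values measure the spread between arrays, which may be technical in part.

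T cells are made in the thymus, which lies just above the heart in the chest. Precursors without CD4 and CD8, called double negative, rearrange the receptor beta chain gene and pair it with the pre-T alpha chain encoded by Ptcra. They then divide and become double positive cells, which carry both CD4 and CD8 and rearrange the alpha chain gene with the RAG1 and RAG2 recombinase. Cells whose receptor passes selection lose one coreceptor, switch off recombination and leave as mature T cells, which use the same CD3 chains and signalling proteins in blood, lymph nodes and tissues. Rag1, Rag2 and Dntt therefore belong to developing lymphocytes, whereas Cd3e, Cd28 or Il7r are also used by mature T cells.

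The stretch of 250 bases before the annotated start of 5 of the genes is shown, taken from RefSeq promoter records of build GRCm38.p6 and written 5′ to 3′ on the strand of the gene. Rag1 and Rag2 are shown because they are neighbours on chromosome 2 that were both high in KD heart replicate 1, Cd3d and Cd3g because they are neighbours with starts 1355 bases apart and nearly equal differences there, and Ptcra because it is the immature thymocyte gene that was not high there. Rag1 lies on the minus strand at chr2:101649533-101649782, Rag2 on the plus strand at chr2:101624462-101624711, Cd3d on the plus strand at chr9:44981536-44981785, Cd3g on the minus strand at chr9:44980432-44980681, and Ptcra on the minus strand at chr17:46763713-46763962. Capitals mark letters that match a searched motif on either strand.
Rag1: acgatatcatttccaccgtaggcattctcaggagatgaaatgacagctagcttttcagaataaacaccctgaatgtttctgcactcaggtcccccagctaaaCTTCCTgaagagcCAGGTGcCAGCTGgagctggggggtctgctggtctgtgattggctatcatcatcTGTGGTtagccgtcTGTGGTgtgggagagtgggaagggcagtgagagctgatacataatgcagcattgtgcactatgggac
Rag2: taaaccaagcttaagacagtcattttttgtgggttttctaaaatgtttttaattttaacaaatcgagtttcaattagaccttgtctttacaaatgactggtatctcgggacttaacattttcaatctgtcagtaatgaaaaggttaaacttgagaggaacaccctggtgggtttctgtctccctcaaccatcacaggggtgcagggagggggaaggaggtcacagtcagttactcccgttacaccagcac
Cd3d: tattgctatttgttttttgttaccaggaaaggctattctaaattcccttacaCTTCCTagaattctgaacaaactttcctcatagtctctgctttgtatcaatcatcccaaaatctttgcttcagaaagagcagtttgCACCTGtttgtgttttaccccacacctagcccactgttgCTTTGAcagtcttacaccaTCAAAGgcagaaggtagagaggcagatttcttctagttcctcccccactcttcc
Cd3g: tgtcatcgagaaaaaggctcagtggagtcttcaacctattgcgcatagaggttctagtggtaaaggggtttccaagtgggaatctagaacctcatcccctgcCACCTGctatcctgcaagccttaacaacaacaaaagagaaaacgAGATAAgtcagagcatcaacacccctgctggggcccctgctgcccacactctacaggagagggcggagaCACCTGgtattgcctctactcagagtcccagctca
Ptcra: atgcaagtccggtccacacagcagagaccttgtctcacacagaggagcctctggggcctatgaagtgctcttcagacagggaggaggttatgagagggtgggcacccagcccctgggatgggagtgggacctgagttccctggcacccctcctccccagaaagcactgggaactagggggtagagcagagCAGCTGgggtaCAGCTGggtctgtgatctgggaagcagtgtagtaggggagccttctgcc

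The motifs were searched on both strands, and no motif contains another. The E-box, bound by E proteins of early lymphocytes, was searched as CAGCTG, with the letters CAGGTG counted as another form of the same motif. The motif of RUNX factors, which silence or switch on Cd4 and Cd8 genes, was TGTGGT, and that of ETS factors, found in blood cells of many kinds, was AGGAAG. The GATA motif, bound by GATA3 in the T lineage, was AGATAA, and that of the TCF/LEF family, to which Lef1 belongs, was CTTTGA. The Rag1 stretch held 2 E-boxes, 2 RUNX motifs and 1 ETS motif, and the Rag2 stretch held none of the 5 kinds. Cd3d had 1 E-box, 1 ETS motif and 2 TCF/LEF motifs, Cd3g had 2 E-boxes and 1 GATA motif, and Ptcra had 2 E-boxes. Promoter records were at hand for 22 of the measured genes. An E-box was present in 8 of these 22 (36.4%) against 27.4% of all 27025 promoters, an ETS motif in 9 (40.9%) against 29.2%, and a GATA motif in 3 (13.6%) against 10.3%. A RUNX motif was present in 2 of the 22 (9.09%) against 14.2% of all promoters, and a TCF/LEF motif in 3 (13.6%) against 14.05%. A match describes letters in this window and no binding, and a missing match says nothing about a factor.

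Values are log2 intensities as deposited, without detection calls, so that it is not known which of the genes were above background, and levels of different genes cannot be compared. The medians over all probe sets were 5.82 to 5.93 in the cardiomyocyte arrays and 7.25 to 7.31 in the hearts, so the tissues are compared by rank within an array only. Slc18a3 itself was 6.06, 6.37 and 6.04 in WT against 6.22, 6.52 and 6.21 in KD cardiomyocytes, 7.34 and 7.72 in WT against 7.31 and 7.84 in KD hearts. These WT and KD values overlap, and where its probes lie relative to the altered part of the gene is not given, so they do not check the genotype labels. Markers of cardiomyocytes had a median rank at the top percentile of named genes in each of the 10 arrays, as the tissue labels state.

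In KD heart replicate 1, 25 of the 31 genes were at least 2-fold (1 on the log2 scale) above the highest of the other 3 heart arrays, against 0.747% of all genes (149 genes), and 14 were at least 4-fold above it. KD heart replicate 1 was the highest of the 4 hearts in 30 of the 31, against 17.9% of all genes, and the exception was Ptcra. The median difference from the mean of the other 3 hearts was 1.99 (3.97-fold), against -0.05 over all genes. Since the list was chosen for these values, the shares describe the choice. In whole tissue, more cells of a type and more RNA per cell cannot be told apart, and which of the 2 pooled RNA samples of the array carried the signal cannot be told from its value.

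**Figure D1:**
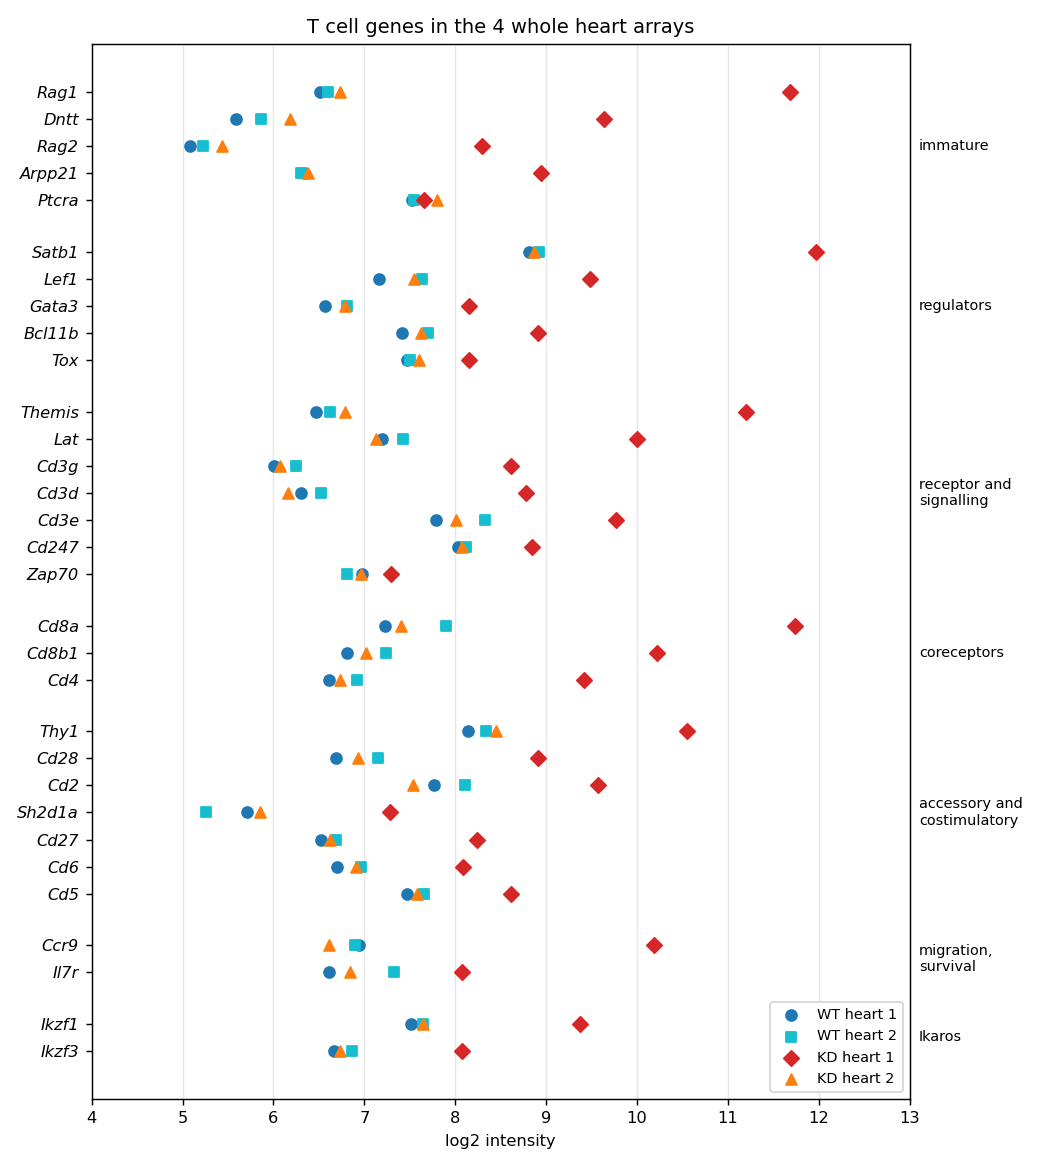
Log2 intensity (horizontal axis) of the 31 measured T cell genes, grouped by role, in the 4 whole heart arrays, 1 symbol per array. KD heart 1 lies to the right of the other 3 hearts in every row except Ptcra, by up to 4.96 for Rag1, while the other 3 hearts lie within 0.72 of one another in each row.

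The immature thymocyte genes, apart from Ptcra, were far higher in KD heart replicate 1. Rag1, the catalytic subunit of the recombinase (probe set 10485372), was 6.51 and 6.60 in the WT hearts, 11.68 in KD heart replicate 1 and 6.73 in KD heart replicate 2. KD replicate 1 was 33.7-fold above the mean of the other 3, which lay close together, and no gene of the 19938 had a larger gap to the highest other heart. Rag2, the partner subunit (probe set 10474105), was 5.09 and 5.22 in WT against 8.29 and 5.43 in KD, so that it was high in the same array by 3.05. Dntt, the terminal transferase that adds bases at the joints of receptor genes (probe set 10463123), was 5.58 and 5.86 in WT against 9.64 and 6.19 in KD, a difference of 3.76 or 13.6-fold for KD replicate 1. Arpp21, a phosphoprotein gene also used by neurons, was 6.33 and 6.30 in WT against 8.95 and 6.38 in KD.

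Ptcra stood apart from the other immature genes. It was 7.52 and 7.55 in WT hearts, 7.66 in KD replicate 1 and 7.80 in KD replicate 2. KD replicate 1 exceeded the mean of the other 3 by 0.04, within their range, and KD replicate 2 was the highest.

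The transcription factors that set up and hold the T cell programme were less far apart. Satb1, a chromatin organiser, was the largest, at 8.82 and 8.92 in WT against 11.97 and 8.87 in KD, a difference of 8.54-fold for KD replicate 1. Lef1, a partner of beta-catenin, was 7.16 and 7.63 in WT against 9.48 and 7.55 in KD. Gata3, needed for the T lineage and for CD4 cells, was 6.57 and 6.81 in WT against 8.16 and 6.79 in KD. In each of these genes KD replicate 1 was the array set apart and KD replicate 2 lay within or beside the WT values. Bcl11b, which fixes commitment to the T lineage, was high there by 1.33, and Tox, a factor of the CD4 lineage, by 0.63, short of 2-fold above the highest other heart (0.55).

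Of the receptor complex and its proximal signalling proteins, 5 of 7 measured genes were at least 2-fold above the highest other heart. Themis, a thymocyte signalling protein needed for positive selection (probe set 10362350), was 6.47 and 6.62 in WT against 11.20 and 6.78 in KD, 23.9-fold for KD replicate 1. Cd3g, the gamma chain, was 6.01 and 6.25 in WT against 8.61 and 6.07 in KD, and Cd3d, the delta chain, 6.30 and 6.52 in WT against 8.77 and 6.16 in KD. These neighbouring genes differed by 2.50 and 2.45 in KD replicate 1. Cd3e, the epsilon chain next to them, was 7.78 and 8.33 in WT against 9.77 and 8.01 in KD, a difference of 1.72. Lat, the membrane scaffold that ZAP-70 phosphorylates, was 7.19 and 7.42 in WT and 7.13 in KD replicate 2, and KD replicate 1 lay 2.75 above their mean.

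The zeta chain and the kinase that binds it differed least in this group. Cd247, the zeta chain, was 8.03 and 8.12 in WT against 8.84 and 8.07 in KD, a difference of 0.77. Zap70 was 6.98 and 6.81 in WT against 7.29 and 6.96 in KD, a difference of 0.38. KD replicate 1 was still the highest heart for both, by 0.72 and 0.31.

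All 3 coreceptor genes were high in KD heart replicate 1. Cd8a, the CD8 alpha chain (probe set 10538993), was 7.22 and 7.90 in WT against 11.73 and 7.40 in KD, 18.7-fold for KD replicate 1. Cd8b1, the CD8 beta chain encoded beside it, was 6.81 and 7.23 in WT against 10.22 and 7.02 in KD, 9.17-fold. Cd4 was 6.62 and 6.92 in WT against 9.42 and 6.73 in KD, 6.33-fold. CD8 alpha is also made by some dendritic cells, whereas the beta chain is largely restricted to the T lineage.

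Among the accessory and costimulatory surface proteins, 6 of 7 were at least 2-fold above the highest other heart, with smaller differences. Thy1, a surface glycoprotein of mouse T cells, neurons and fibroblasts, was 8.14 and 8.34 in WT against 10.55 and 8.45 in KD. Cd28, the costimulatory receptor, was 6.69 and 7.15 in WT against 8.91 and 6.93 in KD, and Cd2, an adhesion receptor, 7.77 and 8.11 in WT against 9.57 and 7.54 in KD. Both were highest in KD replicate 1, by 1.76 above the next heart for Cd28 and by 1.46 for Cd2. Sh2d1a, the adaptor SAP, Cd27, a receptor of the tumour necrosis factor family, and Cd6 differed by 1.68, 1.62 and 1.23 from the mean of the other hearts. Cd5, which dampens receptor signalling, was 7.47 and 7.66 in WT against 8.61 and 7.57 in KD, just short of 2-fold above the highest other heart (0.95).

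The remaining 4 genes guide migration, survival and lymphoid identity. Ccr9, the chemokine receptor that responds to thymic CCL25, was 6.94 and 6.90 in WT against 10.19 and 6.61 in KD, 10.4-fold for KD replicate 1. Il7r, the interleukin-7 receptor alpha chain, which double positive cells lack and other T cells carry, was 6.61 and 7.33 in WT against 8.08 and 6.84 in KD. Its gap to the highest other heart, 0.75, was short of 2-fold. Ikzf1 (Ikaros) was 7.51 and 7.64 in WT against 9.38 and 7.65 in KD, and Ikzf3 (Aiolos) 6.67 and 6.86 in WT against 8.08 and 6.73 in KD.

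By role, the median difference of KD heart replicate 1 was 3.20 for the coreceptors, 3.05 for the immature genes, 2.45 for the receptor complex and signalling, 2.26 for Ccr9 and Il7r, 1.68 for the accessory proteins, 1.55 for the Ikaros family and 1.43 for the regulators. The groups hold 2 to 7 measured genes each. All 3 coreceptor genes (2.66 and more) differed by more than every accessory (up to 2.24) and Ikaros gene (up to 1.77), while the ranges of the other groups overlap. Of the 20 genes with the largest gap between KD heart replicate 1 and the next heart, 10 belonged to the list. No gene among the 19938 was 2-fold below the lowest other heart in that array.

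The other 3 hearts were much alike in these genes. Their range was 0.08 to 0.72, with a median of 0.29, and 25 of the 31 lay within 0.5. None of the 31 was 2-fold above the remaining hearts in WT replicate 1, WT replicate 2 or KD replicate 2, where 1, 3 and 1 genes of the whole array were. Between the WT hearts, replicate 2 was above replicate 1 in 27 of the 31 genes, against 51.8% of all genes, with a median of 0.20 against 0.01 over all genes. The genes furthest apart were Il7r (7.33 against 6.61) and Cd8a (7.90 against 7.22). B cell markers were also higher in WT replicate 2, in 9 of 9, with a summed linear intensity of 1791 against 1530, and lymph node stroma markers in 4 of 4, at 2063 against 978. Their part in the result was not tested.

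Genes of other stages of T cell life were set beside the list. In KD replicate 1 the 5 measured double positive genes had a median difference of 1.11 (0.11 to 2.80). Of these, 2 were at least 2-fold above the highest other heart, and Cd1d1, Ets2 and Cd24a were not. Aqp11, an aquaporin gene, was 6.89 and 6.98 in WT against 9.73 and 6.92 in KD, and Tespa1, a thymocyte signalling protein gene, 5.91 and 6.39 in WT against 8.56 and 6.01 in KD. None of 9 double negative genes did so, with a median difference of -0.004, and Il2ra, Kit and Notch1 differed by 0.49, 0.11 and 0.18. None of 10 genes of mature T cells did so either, with a median of 0.19 and differences from -0.23 to 0.56. KD replicate 1 was the highest heart in 5 of these 10, against 17.9% of all genes. Among the mature T cell genes, Ccr7, the homing receptor of lymph nodes, differed by 0.19. S1pr1, the receptor for exit into blood, differed by -0.23, and Klf2, its activator, by 0.13. The regulatory T cell genes had a median of 0.17 (-0.03 to 0.66, 0 of 5 at least 2-fold), and KD replicate 1 was the highest heart in 2. The cytotoxic and natural killer genes had a median of 0.10 (-0.23 to 0.56, 0 of 11), and KD replicate 1 was the highest heart in 6. The median over all genes was -0.05. In the other 3 hearts the median percentile within the array was 68.7 to 75.1 for the double negative list. For the mature T cell list it was 53.0 to 57.8. Which cells of the heart gave these values was not tested, so small differences do not show that cells of a stage were absent.

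Other proteins of receptor signalling were higher in part. Of 29 measured genes, 8 were at least 2-fold above the highest other heart, and the median difference was 0.68. Trat1, an adaptor that steadies the receptor complex, was 4.61 and 4.82 in WT against 8.17 and 5.01 in KD. Rasgrp1, which activates Ras in thymocytes, was 7.35 and 7.49 in WT against 10.39 and 7.61 in KD. Both had larger differences than most of the list, at 3.36 and 2.91. The other 6 were Sla (2.55), Ptprc, the phosphatase CD45 of all leukocytes (2.40), Grap2 (1.71), Lcp2, the adaptor SLP-76 (1.44), Txk (1.35) and Vav1 (1.34). Fyn, Plcg1 and Nfatc1, also used outside T cells, differed by 0.24, 0.24 and 0.09, values named after they were seen.

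The enzymes that finish recombination are shared by all cells. The 8 measured had a median difference of 0.69, and KD replicate 1 was the highest heart in 5, against 17.9% of all genes. Of these 8, Hmgb2, a DNA bending protein that assists the recombinase, passed 2-fold, at 8.55 and 8.81 in WT against 10.77 and 8.65 in KD. Xrcc6, the Ku70 subunit, differed by 1.11 and Xrcc5, its Ku80 partner, by 0.05. Of 13 E protein, Id and other early regulators 3 passed 2-fold: Myb (2.43), Runx1 (1.33) and Ets1 (1.23). The median of the 13 was 0.41, and KD replicate 1 was the highest heart in 8. Myb, a factor of dividing blood progenitors and thymocytes, was 6.64 and 6.57 in WT against 8.99 and 6.45 in KD.

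Of 9 variable segments of T cell receptor genes with a probe set, 2 passed 2-fold in KD replicate 1, against 0.747% of all genes. They were Trav14-1 (1.76) and Trav7n-5 (1.18), and the other segments differed by 0.04 (Trav19) to 1.04 (Trgv1). Trav14-1 ranked low, at percentile 4.5 to 6.9 in the other hearts and 29.7 in KD replicate 1. Trav7n-5 ranked at 3.2 to 3.8 and 12.8. No constant part was among the 9. The segments were looked up after the other values were seen. The locus of the microRNAs miR-181a-1 and miR-181b-1, which tune receptor signalling in thymocytes, was also looked up after the values were seen. The Mir181b-1 probe set was 5.72 and 5.70 in WT against 9.54 and 6.18 in KD, and the Mir181a-1 probe set 4.15 and 4.34 in WT against 5.73 and 4.38 in KD. KD replicate 1 was thus apart in both, by 3.68 and 1.44. Such a probe set measures RNA of the locus and not the mature microRNA. The mature sequences, from RefSeq records of GRCm38.p6 on the plus strand (chr1:137966468-137966490 and chr1:137966650-137966673), share their seed, bases 2 to 8, in capitals.
miR-181a-5p: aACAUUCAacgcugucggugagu
miR-181b-5p: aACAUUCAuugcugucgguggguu

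Outside the list, and leaving out small RNAs such as Mir181b-1, receptor segments and gene models known by a clone or accession name alone, the 15 genes with the largest gap between KD heart replicate 1 and the next heart were Ccl25, Prss16, Trat1, H1f5, Rasgrp1, Aqp11, P2ry10, Top2a, Glcci1, Sla, Pclaf, Kif11, Slc7a11, Myb and Trp53inp1. Likeness here means that gap over the 4 hearts and nothing about function. Ccl25, the chemokine of thymic epithelium that CCR9 binds, was 7.07 and 6.96 in WT against 10.72 and 7.11 in KD. Prss16, a serine protease of thymic cortical epithelium, was 6.75 and 6.78 in WT against 10.41 and 6.84 in KD. H1f5, a linker histone gene, was 8.92 and 9.13 in WT against 12.20 and 9.26 in KD.

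Markers of other cell types were read in the same array. Of 16 thymic epithelial genes 5 were at least 2-fold above the highest other heart, Ccl25, Prss16, Krt5 (1.67), Ly75 (1.52) and Tbata (1.17). The median difference of the 16 was 0.31 (-0.03 to 3.67). The summed linear intensity of the list, in which bright genes weigh most, was 6535 against 2641 to 2841 in the other hearts. Foxn1, Psmb11 and Aire, which define thymic epithelium and its compartments, differed by 0.12, -0.03 and 0.00 and were not set apart in that array. All 19 cell cycle genes were highest there, 8 of them by at least 2-fold, led by Top2a (2.77) and Kif11 (2.46), with a sum of 7363 against 3355 to 3470. B cell genes summed to 1656, within the 1530 to 1791 of the other hearts, and none of 9 passed 2-fold. Cardiomyocyte genes summed to 101202 against 105154 to 112540, and none of the 9 was highest in KD replicate 1. The part of thymic epithelial and dividing cells in the result was not tested.

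**Figure D2:**
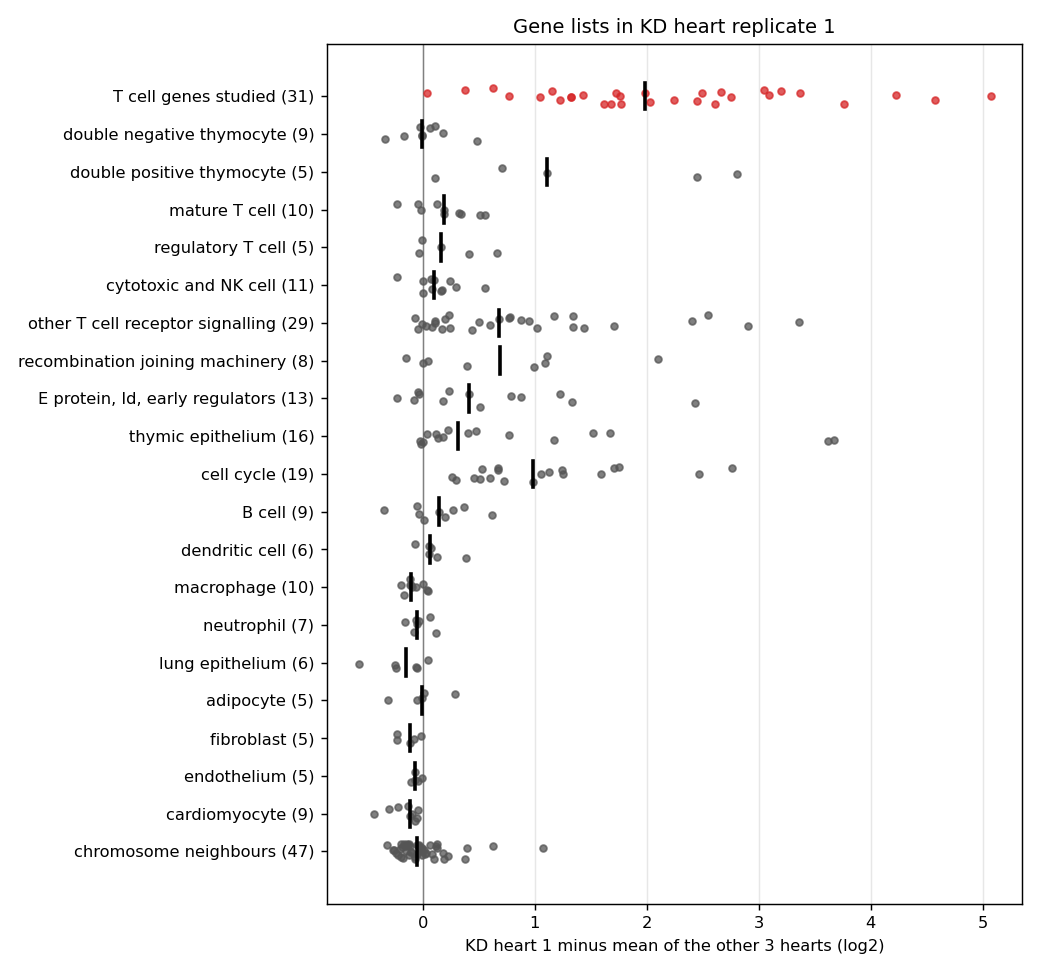
Difference between KD heart replicate 1 and the mean of the other 3 hearts (log2, horizontal axis) for each gene (points) of the T cell genes studied, other lists and the chromosome neighbours of the T cell genes, with list medians as black bars and the number of genes in brackets. The T cell genes have a median of 1.99, the cell cycle genes 0.98, and the cardiomyocyte, fibroblast and endothelial genes lie near 0.

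The genes lie on 14 chromosomes. Of 52 protein-coding genes that flank a listed gene and are not on the list, 47 were measured, with a median difference of -0.05 in KD heart replicate 1. The Ikzf1 neighbour Fignl1, at 1.08, was the only neighbour at least 2-fold above the highest other heart. Members next to each other were Rag1 and Rag2, the 3 CD3 genes, Cd8a and Cd8b1, and Cd5 and Cd6, and in each pair both were higher in that array.

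The comparison of KD with WT cardiomyocytes asks whether the genotype goes with these genes in isolated muscle cells, a contrast that the choice of the list did not use. In every cardiomyocyte array 25 of the 31 lay below the 50th percentile. The contrast therefore cannot show a difference in T cells of the whole heart. None of the 31 passed, with a limma adjusted p of 1 for the smallest of them, against 0% of all genes (0 of 19938). At an unadjusted p of 0.05 limma called 2.1% of all genes (419) and 0 of the 31. The differences had a median of 0.01, against 0 to 2 decimals over all genes, and 17 of the 31 were higher in KD. In none did the 3 KD arrays lie entirely above the WT arrays, against 2.99% of all genes, or entirely below, against 3.21%.

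**Figure D3:**
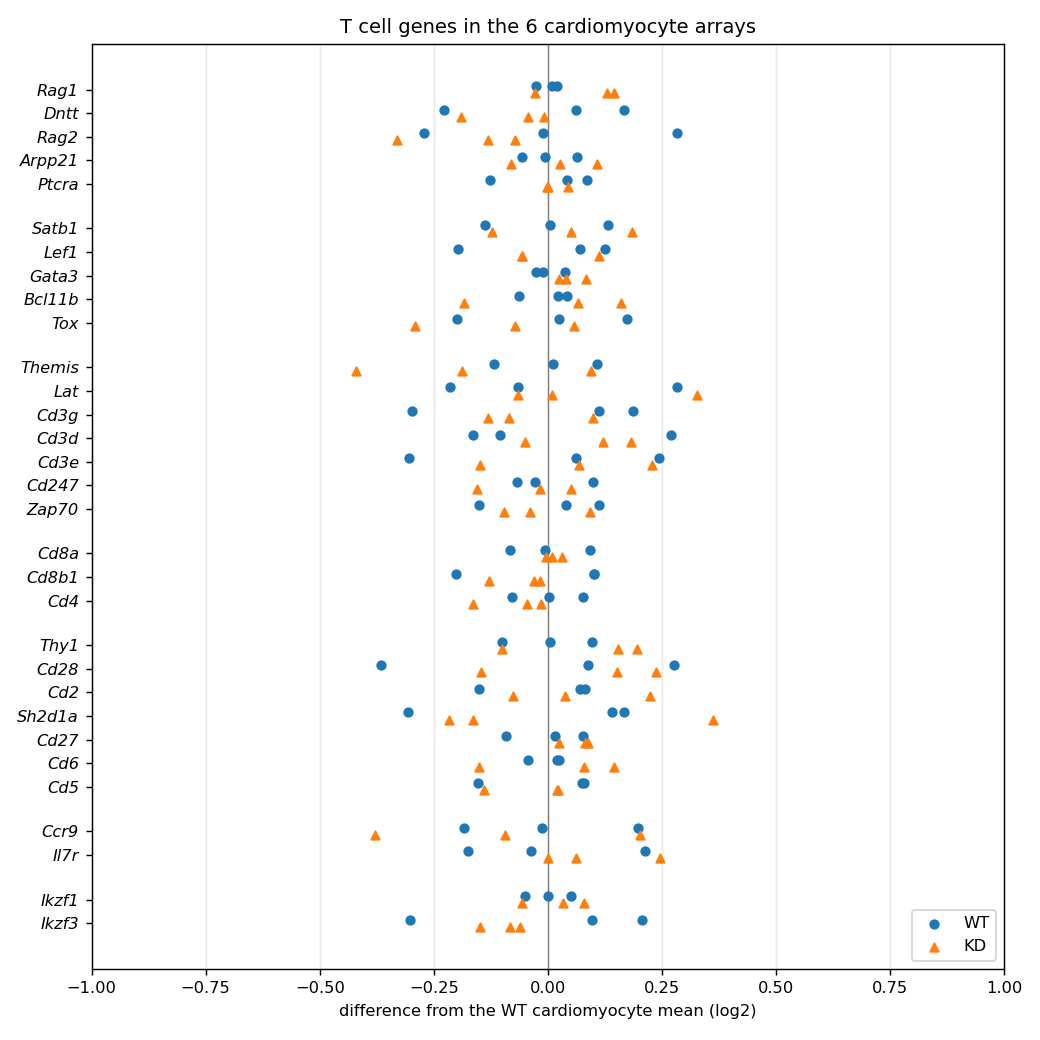
Log2 intensity of each T cell gene in the 6 cardiomyocyte arrays relative to the WT mean of that gene (horizontal axis), 1 symbol per array. WT and KD arrays overlap in each of the 31 rows.

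Rag1 was 4.48, 4.50 and 4.45 in WT against 4.62, 4.61 and 4.45 in KD cardiomyocytes (4.48 ± 0.02 and 4.56 ± 0.10, SD, n = 3 each). Cd8a was 5.41, 5.58 and 5.48 in WT against 5.50, 5.52 and 5.49 in KD. Themis was 3.70, 3.93 and 3.83 in WT against 3.40, 3.91 and 3.63 in KD. The groups overlapped in each of these genes, which led the list in KD heart replicate 1. Dntt was 4.14, 4.54 and 4.43 in WT against 4.18, 4.36 and 4.33 in KD, and Satb1 7.88, 8.01 and 7.74 in WT against 7.93, 7.76 and 8.06 in KD. The lowest difference of the list was that of Rag2 (-0.18), at 3.67, 3.97 and 3.41 in WT against 3.61, 3.55 and 3.35 in KD. The highest was that of Il7r (0.10), at 3.61, 3.86 and 3.47 in WT against 3.65, 3.71 and 3.89 in KD.

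The fit over all 10 arrays takes its spread in part from the KD hearts, so the interval of Rag1, -1.66 to 1.82 (95%), mostly reflects KD heart replicate 1. Fitted on the cardiomyocyte arrays alone, Rag1 differed by 0.08 (SE 0.09, interval -0.12 to 0.28). In that fit the intervals of the 31 reached a median of 0.25 to either side (1.19-fold), from 0.20 to 0.36, against a median of 0.75 with all arrays, and none passed. These widths hold for single genes without adjustment over all genes. Differences larger than them could therefore also fail the adjusted threshold with 3 arrays a group.

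With KD heart replicate 1 in the fit, the median difference of KD from WT hearts was 1.05, all 31 were higher in KD, and in 10 both KD arrays lay above both WT arrays, against 14.2% of all genes. Since the list was chosen on that array, these values are no test. Without it, limma compared KD replicate 2 with the WT hearts, the lone KD array being assumed to vary like the other groups. None of the 31 passed, against 0.00502% of all genes, and the median was 0.02 against 0.04 over all genes. KD replicate 2 was above the WT mean in 19 of 31, against 58.6% of all genes.

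At an unadjusted p of 0.05, which 10% of all genes reached in that fit, 2 of the 31 did so. Dntt was 6.19 in KD replicate 2 against 5.58 and 5.86 in WT, a difference of 0.47 (SE 0.18, limma adjusted p 0.41). Cd2 was 7.54 against 7.77 and 8.11, a difference of -0.40 (SE 0.18, adjusted p 0.48). The single gene of the array that passed in that fit was Ms4a1, the B cell protein CD20, named after its value was seen, at 7.25 and 7.27 in WT, 7.39 in KD replicate 1 and 5.79 in KD replicate 2 (difference -1.47, limma adjusted p 0.0040). That call rests on the spread of all tissues and a lone KD array: fitted on the heart arrays alone, limma called 0 genes, with a smallest adjusted p of 0.13 and 2457 genes at an unadjusted p of 0.05.

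The rank of a gene among the 19938 of its own array allows a view across tissues, though it also depends on the probe set and is compared here between arrays, not between genes. The 31 genes had a median percentile of 81.0 in KD heart replicate 1, 31.7 to 39.6 in the other hearts and 29.4 to 31.5 in the cardiomyocyte arrays. In KD heart replicate 1, 29 of the 31 lay above the 50th percentile, and Zap70 and Sh2d1a lay below it, at 43.0 and 42.8. In every cardiomyocyte array 25 of the 31 lay below the 50th percentile. Rag1 ranked at 98.8 in KD heart replicate 1, 25.3 to 27.7 in the other hearts and 16.5 to 20.4 in cardiomyocytes.

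**Figure D4:**
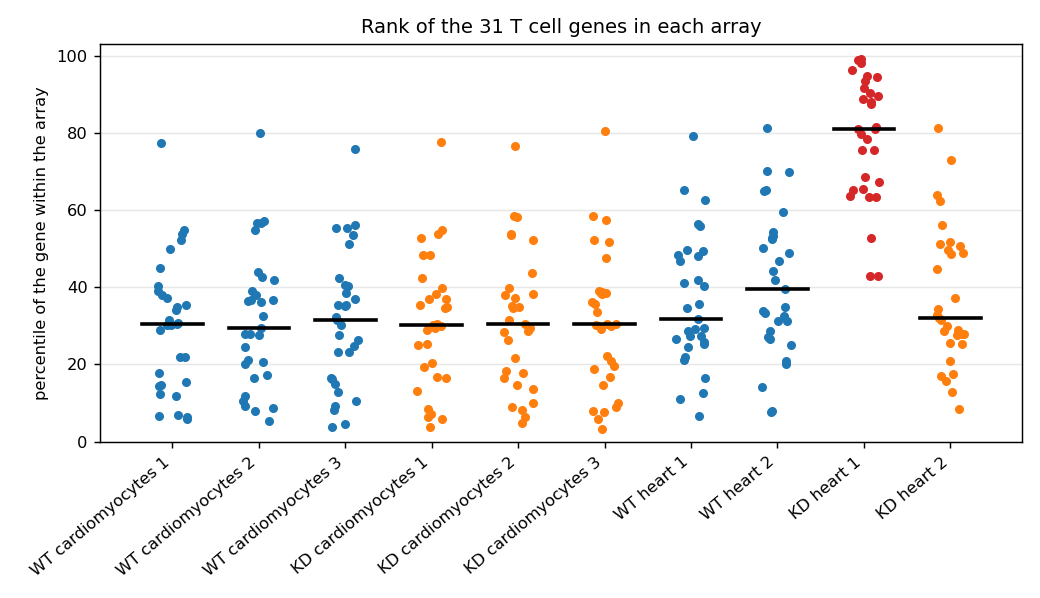
Percentile of each of the 31 T cell genes among 19938 genes (vertical axis) in each of the 10 arrays, with the median as a black bar. The median is 81.0 in KD heart 1 and between 29.4 and 39.6 in the other 9 arrays.

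Some genes ranked higher in the other 3 hearts than in the isolated cells. In 15 of the 31 all 3 lay above all 6 cardiomyocyte arrays, against 30.0% of all genes, and in 2 they lay below, against 32.0%. Cd247 ranked at 62.6 to 65.1 in these hearts and 28.8 to 32.4 in cardiomyocytes, Cd2 at 48.7 to 64.8 against 21.8 to 26.4, and Il7r at 27.4 to 44.3 against 4.5 to 9.0. These are genes that mature T cells use, and the 15 also held Rag1, Ptcra and Themis. Rag2 ranked at 6.7 to 8.5 in these hearts and 3.3 to 9.1 in cardiomyocytes, and Arpp21 at 20.8 to 21.8 against 20.8 to 25.1, so that both overlapped between the tissues. The 2 genes that ranked lower in these hearts were Cd28, at 29.3 to 39.6 against 42.5 to 55.2, and Cd4, at 27.5 to 33.7 against 36.8 to 40.6.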

How the data were processed

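RNA of 10 arrays was hybridised on Affymetrix gene arrays. The deposited values are log2 intensities per probe set, normalized by the authors with RMA (background correction, quantile normalization and probe summary) in Partek, per the submitters' processing notes. Versions and genome build are not given in sources used here. Cardiomyocyte and heart arrays differ in their medians, so the sets appear to have been normalized separately, and fold changes were taken within a tissue only.

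Of 35556 probe sets, 21789 carried 1 gene symbol, 1621 several and 12146 none in the platform annotation, whose Entrez identifiers matched the reference for 21698 and changed 0 symbols. For 999 genes with more than 1 probe set the one with the highest mean was kept, which left 19938 genes. No column of the table was without a sample. KD was compared with WT with limma 3.58.1 (R 4.3.3), with an intensity trend, no block and 4 group means, two-sided, and Benjamini-Hochberg adjustment over all genes at 0.05. The fit was tested on simulated data. Differences of KD heart replicate 1 are plain subtractions. Motifs were counted in 250 bases before each RefSeq start.

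The listed genes, the other gene lists and the tests were chosen with earlier results of these data known. All listed genes are named. Of each other list, up to 4 genes with the highest mean were to be named. For T cell, thymic and signalling lists, those with the largest difference were to be named too. This choice was not followed throughout: some genes that it picks are not named, and some are named for what they mark. The 15 genes nearest in pattern are named, gene models and small RNAs left out. Other genes were named or looked up after their values were seen, as said there. Whether replicate numbers pair the arrays is not known. Same-numbered WT and KD cardiomyocytes had correlations of deviations of 0.15, 0.13 and -0.05, and differently numbered ones -0.19 to 0.07. The number of arrays limits the precision.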

Additional observations from a re-analysis of the deposited data

How the results depend on the processing

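No listed gene passed between KD and WT cardiomyocytes in any of 18 alternatives, among them the fit without KD heart replicate 1, chosen after seeing the data, and leaving out each array (0 to 0). There the median ranged from -0.04 to 0.04 with an array left out. With the replicate block, for numbers that are not known to pair the arrays, 0 genes passed and the median was 0.01, and 1.05 in hearts. In hearts without KD replicate 1 a threshold of 0.05 on the unadjusted p called 2, and the median was -0.07 to 0.15 with a WT array left out (0 called), turning to -0.03 under quantile normalization of all arrays. The KD minus WT heart median of 1.05 was 0.88, 1.16 and 1.99 without WT replicate 1, WT replicate 2 and KD replicate 2, and 0.02 without KD replicate 1, so that it rests on that array.

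The median difference of KD heart replicate 1 was 2.43 under quantile normalization of all arrays, 1.72 with a filter on dim genes, which left 5 of the listed genes, and 1.87 to 2.10 with another heart left out. The count of genes at least 2-fold above the other hearts was 4 with the filter and 25 to 27 with another heart left out. Detection calls were not used here, so dim genes cannot be told from background, and with 2 arrays a heart group a single array decides the heart values.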
